A study of Oryza sativa with 35 samples.

Results

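The blades of leaves at 3 positions on the rice culm were compared: the whole flag leaf blade, the whole blade of leaf 2 and the whole blade of leaf 4. The labels count the numbered leaves downward from the flag leaf and do not say whether the flag leaf itself is number 1. These 3 samples, chosen by their labels, are 3 of the 35 samples of a study of organs of Oryza sativa cultivar Nipponbare at heading, grown on soil in an irrigated greenhouse with added artificial light. All other samples come from plants described in the same way, with no treatment or mutant named for any of them: flowers, panicle branches, internode I, nodes I and II, the flag leaf sheath and, as 9 arrays, the flag leaf blade cut into tip, middle and base parts with 3 numbered replicates each. Total RNA of each sample was read on the Affymetrix Rice Genome Array, on which a probe set, a group of short probes, reads a transcript. Each whole blade is 1 array, and the labels do not say how many plants it came from or how old the leaves were in days.

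On a rice culm leaves form one after another, so a leaf lower down is older than the flag leaf, which is the last to form and lies beneath the panicle. As a leaf ages its chloroplasts are dismantled, chlorophyll is broken down by a dedicated chain of enzymes, and nitrogen, phosphorus and potassium are exported through the phloem. At heading the uppermost leaves are a main source of sugars for the developing panicle.

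Levels below are log2 of the signal after quantile normalization over the 35 arrays, with values under 1 set to 1 before the log. A probe set was read where its mean over the 3 blades reached the median of all values, a log2 level of 5.85, as 27592 of 57258 rice probe sets did. A steady rise is a step of at least 0.5 from the flag blade to leaf 2 and a further step of at least 0.5 from leaf 2 to leaf 4, and a steady fall is the same downward. "Rose" and "fell" below name such steps in size. With 1 array per blade there is no test between blades, no p-value and no error of a difference. The nearest yardstick is the spread of the 9 flag blade part arrays: for each probe set, the largest range between replicates within the tip, middle or base had a median of 0.70 over the probe sets read.

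The 3 arrays read green blades, and the whole flag blade matched its own parts most closely. RBCS, CAB2R and rca, which encode the small subunit of Rubisco, a light-harvesting protein and Rubisco activase, lay above 14 on every blade. The summed deposited signal of the 4 green blade markers, with RBCS1 not read, was 134046 in the flag blade, 103140 in leaf 2 and 67064 in leaf 4. After quantile normalization leaf 4 differed from the flag blade by -0.84 for RBCS, -0.48 for CAB2R and -0.12 for rca. None of these probe sets fell steadily on that scale. On the deposited scale the differences were -1.29, -1.14 and -0.73, and RBCS met the rule for a steady fall, with signals of 35732, 23583 and 14650. For the senescing leaf markers SGR and NYC1 the sum was 4811, 5951 and 14143. SGR carried most of that difference, from 811 in the flag blade to 9022 in leaf 4, where NYC1 went from 4000 to 5121. The part of these marker shifts in the other results was not tested. The summed deposited signal of the 14 genes of dividing tissue was 1515 in the flag blade, 1815 in leaf 2 and 1530 in leaf 4, with 11 of the 14 not read, and that of 4 floral organ genes was 1149, 1154 and 1100. Of all probe sets read, 81.7% had a whole flag blade value within the range of the 9 part arrays, against 69.7% for leaf 2 and 67.1% for leaf 4. Across probe sets, which are not independent replicates, the flag blade correlated at 0.95 with leaf 2 and 0.938 with leaf 4, where replicates within a flag blade part reached 0.926 to 0.962.

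One measure of the leaf 4 array stood apart. Its 18 hybridization control probe sets, which read RNAs added in known amount, had a mean log2 of 10.39, the lowest of the 35 arrays, against 11.32 for the flag blade and 11.15 for leaf 2. The log2 ratio of the 3' to the 5' actin control was alike in the 3, at 2.54, 2.47 and 2.39. Setting the hybridization controls equal would raise the median difference of leaf 4 from the flag blade by about the whole of that gap, to 0.95, from 0.02 after quantile normalization. All directions below are therefore relative to the bulk of the probe sets on each array, and whether total RNA per cell differed between the blades was not tested. In whole blades, fewer cells of a type and less RNA per cell cannot be told apart.

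Steady change with leaf position was uncommon. There were 358 steady rises (1.3% of the probe sets read) and 481 steady falls (1.74%). A turn at leaf 2 was more frequent, with 1554 peaks (5.63%) and 2022 troughs (7.33%), that is, steps of at least 0.5 in opposite directions. The leaf 2 array enters both steps with opposite sign, so any error of that array adds to the peaks and troughs. Leaf 4 lay at least 2-fold above the flag blade for 1641 probe sets (5.95%) and at least 2-fold below it for 1703 (6.17%). With the hybridization controls set equal, the same rule gave 3825 steady rises and 112 steady falls, so the balance of the 2 directions depends on the scaling.

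**Figure D1:**
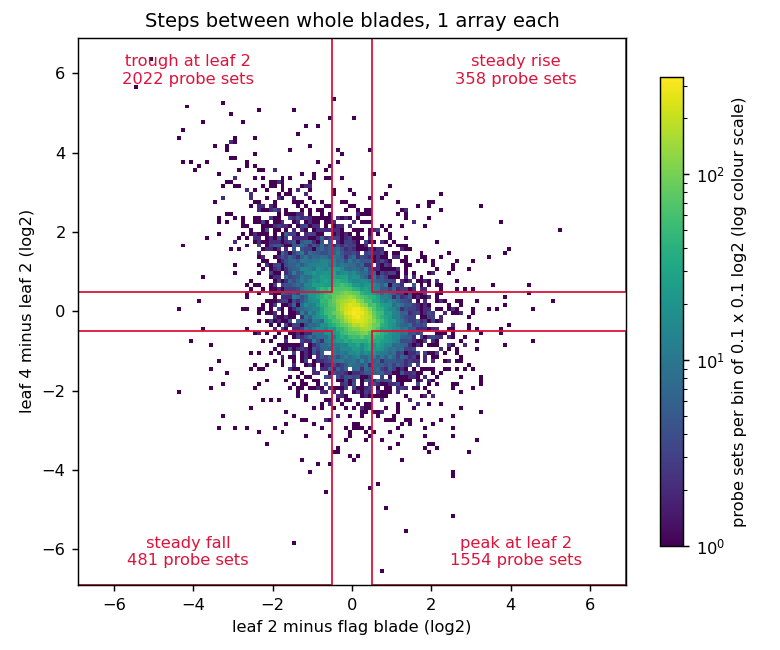
Step from the flag blade to leaf 2 (x axis, log2) against the step from leaf 2 to leaf 4 (y axis, log2) for the 27592 probe sets read, as counts per bin on a log colour scale, with 1 array per blade. The red frames hold the 358 steady rises, 481 steady falls, 1554 peaks and 2022 troughs, and the cloud is drawn out toward the frames of troughs and peaks.

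The steady changes varied widely in size. The rises had a median of 1.85 from the flag blade to leaf 4 and a largest value of 7.26, and 153 of the 358 reached 4-fold. Among the falls the median was -1.83, the largest fall was 7.29 in size, and 197 of 481 reached 4-fold. The change was larger than the largest replicate range within a flag blade part for 237 rises and 379 falls. Leaf 4 lay outside all 10 flag blade arrays, whole and part, for 274 rises and 341 falls, and for 31.2% of all probe sets read. The rule itself sets leaf 4 apart from the whole flag blade array, so nothing is read from these counts. At the edge of the rule, the smaller step of the last rise inside was 0.5002 and of the first outside 0.4995, and for falls these were 0.5006 and 0.4989 in size. Only 36 genes with a name were found among the rises and 50 among the falls, since many rice probe sets have no gene name in the annotation used, so the named genes show a small share of the pattern.

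Genes of chlorophyll breakdown were higher in leaf 4 and genes of chlorophyll synthesis and of the photosystems were lower. All 4 breakdown genes read lay above the flag blade in leaf 4, as did 14158 of the 27592 probe sets read. They had 2 steady rises and a median difference of 1.69 against 0.02 for all probe sets read. SGR encodes the stay-green protein, which removes magnesium from chlorophyll. It had a level of 9.69 in the flag blade, 10.40 in leaf 2 and 13.26 in leaf 4, in deposited signal 811, 1370 and 9022. The 9 flag blade part arrays ran from 8.55 through a median of 9.88 to 11.09, so leaf 4 stood above every flag blade array while leaf 2 lay within their range. A further SGR probe set rose by 3.79, close to the 3.57 of this one.

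RCCR1, the red chlorophyll catabolite reductase that acts further down the same chain, was read at 9.68, 10.89 and 12.55. Its part arrays ran from 9.64 to 11.67, with a median of 10.11, and again leaf 4 alone lay above them. The chlorophyll b reductase genes differed little in size: NYC1 was at 11.94, 12.16 and 12.34, inside the flag blade range in leaf 4. NOL was at 10.54, 11.12 and 11.06, and its leaf 4 value lay above all 10 flag blade arrays. The steep part of the pattern was therefore carried by SGR and RCCR1.

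Chlorophyll synthesis had 12 genes read, none of them steady and 1 a peak. Of the 12, 11 lay lower in leaf 4 than in the flag blade, as did 48.7% of all probe sets read. For 11 of the 12 the leaf 4 value was outside all 10 flag blade arrays, as it was for 31.2% of all probe sets read. Their median difference was -0.77, and 0.11 once the hybridization controls were made equal, where the median of all probe sets read was 0.95. PORA, a light-dependent protochlorophyllide reductase, was at 9.20 in the flag blade, 9.75 in leaf 2 and 7.18 in leaf 4. CHLH, a subunit of magnesium chelatase, was at 13.72, 13.67 and 12.73, and CAO, which makes chlorophyll b, at 13.41, 12.92 and 12.46. GLK1, a transcription factor of chloroplast development, was at 12.81, 12.99 and 11.86. In PORA, CHLH and GLK1 the drop lay between leaf 2 and leaf 4, and in CAO it was spread over both steps.

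Of the 8 light-harvesting and photosystem genes read, all 8 lay lower in leaf 4 than in the flag blade on the quantile and the deposited scale. After quantile normalization 48.7% of all probe sets read lay lower, and none of the 8 met the rule for a steady fall. The median difference of the 8 genes was -0.48 after quantile normalization and -1.08 on the deposited scale. With the hybridization controls set equal it was -0.15, where the median of all probe sets read was 0.95. These genes are among the brightest on the array, where quantile normalization sets the arrays' highest values equal. The 894 probe sets with a mean of at least 13 over the blades had a median difference of 0.04 after quantile normalization and -0.36 on the deposited scale.

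PSB28, which encodes a protein of photosystem II assembly, was at 12.59 in the flag blade, 10.61 in leaf 2 and 10.56 in leaf 4, outside the 11.56 to 12.41 of the part arrays. RCABP69, a chlorophyll a/b binding protein gene, was at 14.57, 14.28 and 12.82, with part arrays from 14.44 to 14.68. PSAH, a photosystem I subunit gene, was at 14.76, 14.49 and 13.63. In PSB28 the drop lay between the flag blade and leaf 2, and in RCABP69 and PSAH mostly between leaf 2 and leaf 4. PETE, the plastocyanin gene, was nearly level at 14.94, 14.93 and 14.85, and lower by 0.73 in leaf 4 than in the flag blade on the deposited scale.

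In the Calvin cycle and photorespiration, GDCSH stood out from the other members. It encodes the H protein of glycine decarboxylase, the photorespiratory enzyme of leaf mitochondria, and was at 13.99, 12.41 and 11.46. The 9 part arrays were tightly grouped from 13.32 to 13.75, with a largest replicate range of 0.23, and both older blades lay below all of them. This was 1 steady fall among 9 genes read, and GDCSH was no longer steady with the hybridization controls set equal. The list's median was -0.17 after quantile normalization and -0.71 on the deposited scale. With the hybridization controls set equal it was 0.22, where the median of all probe sets read was 0.95. The brightest RBCS probe set went from 14.98 through 14.54 to 14.15, a difference of -0.84, while a dimmer one of the same gene fell steadily by 2.41, so the 2 disagree in size. GLO3, a glycolate oxidase family gene, was higher in leaf 4, at 8.87, 9.87 and 10.33, within the range of the flag blade parts.

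**Figure D2:**
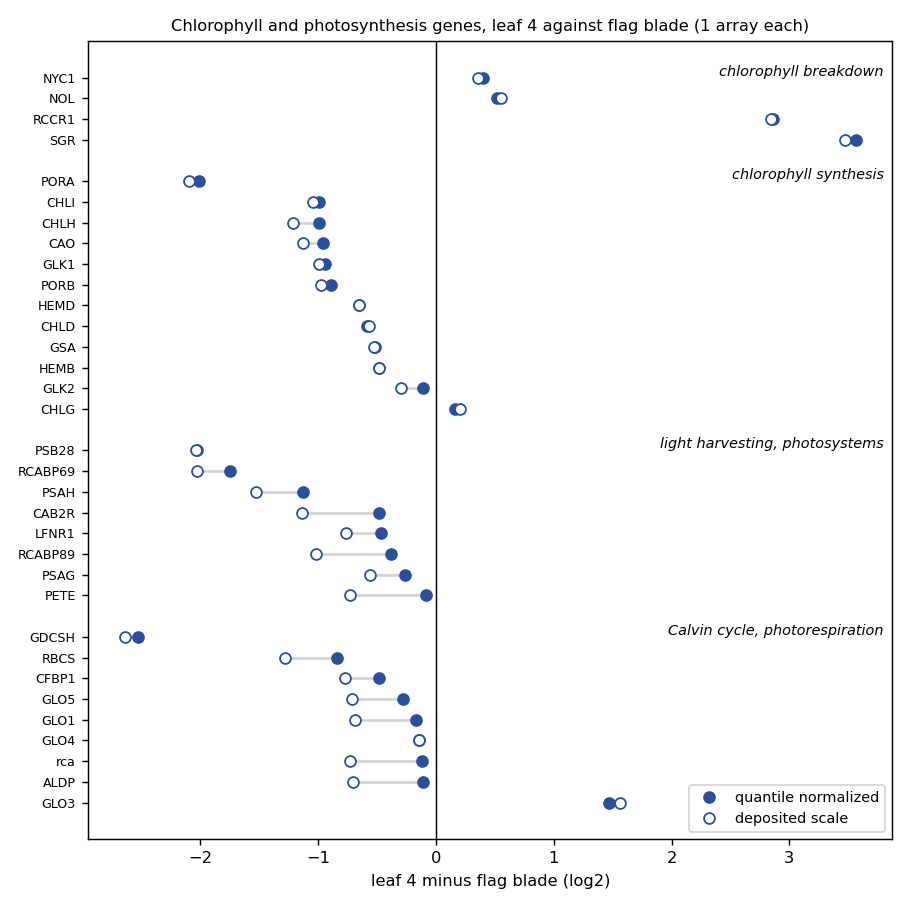
Leaf 4 minus flag blade (x axis, log2, 1 array each) for each gene read in 4 lists, after quantile normalization (filled) and on the deposited scale (open). The 4 breakdown genes lie right of 0 and 11 of 12 synthesis genes and all 8 photosystem genes left of it on both scales. Of all probe sets read, 48.7% lie left of 0 after quantile normalization. Once hybridization controls are set equal the median is 0.11 for synthesis, where that of all probe sets read is 0.95. The scales part for the brightest genes, such as PETE and rca.

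Single genes of other plastid enzymes also met the rule for a steady fall. CLA1, the deoxyxylulose phosphate synthase that opens the plastid isoprenoid pathway, was at 10.72, 9.42 and 7.51, and its other probe set differed by -2.07 without meeting the rule. APX8, a chloroplast ascorbate peroxidase, was at 13.29, 12.76 and 11.49, with part arrays between 13.04 and 13.60. It was the 1 steady member among 23 antioxidant genes read, and no longer steady with the hybridization controls set equal. Genes outside the lists, chosen here after their values were seen, included GluTR, glutamyl-tRNA reductase of tetrapyrrole synthesis, at 13.29, 11.90 and 11.21, and PSY1, phytoene synthase of carotenoid synthesis, at 13.22, 12.28 and 11.56. With the hybridization controls set equal neither was a steady fall, and the leaf 4 differences were -1.20 for GluTR and -0.78 for PSY1.

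Nitrogen genes showed no common direction. Of 15 read, 1 fell steadily, 2 peaked and 4 had a trough at leaf 2, and the median difference was -0.05. The steady fall was AMT1-2, an ammonium transporter gene, at 8.65, 7.86 and 7.32. It was no longer steady with the hybridization controls set equal. GLN1-2, a cytosolic glutamine synthetase gene, was at 12.65, 12.24 and 11.27, below the 11.45 to 12.44 of the part arrays. GLN2, the plastid glutamine synthetase, was nearly level in its brightest probe set, at 14.43, 14.13 and 14.14, whereas another of its probe sets fell steadily from 10.34 to 7.92. GLT2, an NADH-dependent glutamate synthase gene, had its highest value in leaf 2, at 10.21, 12.95 and 10.49, but its replicates within a flag blade part differed by up to 3.40. None of the 7 autophagy genes read was steady or turned at leaf 2, and their median difference was -0.06.

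Transporters of potassium and phosphate were among the steady rises. HAK1, a high-affinity potassium transporter gene, was at 9.87, 10.59 and 12.71, with part arrays from 8.82 to 11.07. It was read by a probe set marked for possible cross-hybridization, and a second HAK1 probe set was 2.49 higher in leaf 4 than in the flag blade, nearly all of it between leaf 2 and leaf 4. HAK3 of the same family was at 4.74, 6.74 and 7.70, by a probe set marked likewise, and its other probe set was not read. Its flag blade level lay below the limit for reading and below the 5.20 to 7.19 of the part arrays. From the mean of the parts the HAK3 change was 0.98 rather than 2.96, and it met no pattern. HAK1 and HAK3 were the 2 steady rises of 25 potassium, sodium and silicon genes read, whose median difference was 0.20.

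PHO1-2, a phosphate exporter gene, was at 7.76, 9.12 and 10.13, above the highest part array of 9.40 in leaf 4. Its 2 other probe sets read differed by 0.30 and -0.21, so the rise rests on 1 probe set. Of 14 phosphate genes read it was the 1 steady rise, and 4 had a trough, among them the phosphate transporter gene PT8 at 11.83, 10.60 and 12.99. In metal transport and storage, 42 genes read gave 1 rise, 1 fall, 6 peaks and 2 troughs, with a median of 0.00. The rise, MTP7, was at 4.56, 6.76 and 7.33, and its leaf 4 value lay within the 6.49 to 7.57 of the flag blade parts, which the whole flag blade did not reach. The fall, VIT1, a vacuolar iron transporter gene, was at 10.63, 10.08 and 9.48. With the hybridization controls set equal VIT1 was no longer steady.

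The largest metal-related differences did not follow the steady rule. MT1B, a metallothionein gene, was at 7.17, 7.67 and 11.72, and NAS3, a nicotianamine synthase gene, at 7.07, 11.03 and 10.73. The first therefore differed in leaf 4 alone and the second already in leaf 2. NIP2-1, the silicon channel gene Lsi1, was at 9.12, 9.44 and 11.23, and it accounts for most of the summed deposited signal of the node and root markers, which went from 881 through 1138 to 2744. Of those 5 marker genes 3 were not read on the blades.

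Gibberellin genes gave 1 steady rise and 1 steady fall. GA20OX2, a gibberellin 20-oxidase known for the semidwarf rice varieties, was at 7.60, 9.40 and 10.17. CPS1, which catalyses the first step toward gibberellins, was at 8.89, 8.18 and 6.11. These 2 genes of one pathway thus moved in opposite directions, among 8 gibberellin genes read. CPS1 in leaf 4 lay inside the 5.68 to 8.85 of the flag blade parts, GA20OX2 above their 9.64.

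Auxin genes had 3 steady rises, 6 peaks and 1 trough among 44 read, with a median of -0.04. IAA6, an Aux/IAA repressor gene, was at 10.62, 11.86 and 12.60. PIN4, an auxin efflux carrier gene, was at 9.28, 10.39 and 11.05, and GH3-6, of the auxin-conjugating family, at 7.37, 8.22 and 8.72. In all 3 leaf 4 lay above every flag blade array, which the rule itself sets in part, and 31.2% of all probe sets read lay outside them. GH3-2 in leaf 4 was above every flag blade array too, at 9.94, 10.40 and 12.98, without a steady first step. For PIN4 the change of 1.77 was smaller than its largest replicate range within a flag blade part, 2.01. Among 72 abscisic acid genes read, PP2C16 was the 1 steady rise and 12 had a trough, while 26 cytokinin and 9 ethylene genes had no steady member. The PP2C16 level of 10.02 in leaf 4 lay within the 9.14 to 10.38 of the flag blade parts. Its whole flag blade level of 8.71 lay below all of these parts.

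LOX8, a chloroplast lipoxygenase gene, was at 8.78, 10.96 and 12.70, and its part arrays ran from 8.48 to 11.19 with a median of 8.73. It was the 1 steady rise of 30 jasmonate genes read. The largest named rise was LIS, linalool synthase of volatile terpene production, at 3.16, 6.90 and 9.15. Its flag blade level lay below the limit for reading and its parts ran from 1.77 to 5.58, so the 63.3-fold difference rests on a dim start. Other named rises were SMR1 at 6.21, 7.52 and 9.40, cap2 at 6.47, 7.87 and 9.05, and the germin-like gene GER6 at 7.37, 8.10 and 9.45.

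Chitinases held the most steady falls of the lists. Of 14 defence protein genes read 5 fell steadily and none rose, where steady falls made up 1.74% of all probe sets read. All 5 were chitinases, which cleave the chitin of fungal cell walls. Cht5 was at 10.36, 6.99 and 4.08, and Cht4 at 9.22, 6.27 and 3.31. Both leaf 4 levels lay below the limit for reading, 5.85. With 16 added to the signal the changes were -5.33 for Cht5 and -4.56 for Cht4, rather than -6.28 and -5.91. Cht1 was at 11.18, 9.44 and 8.51, Cht2 at 10.88, 8.56 and 7.48, and Cht11 at 13.20, 11.75 and 10.73. Leaf 4 was below all 10 flag blade arrays for each of the 5, where it lay outside them for 31.2% of all probe sets read. The rule itself sets leaf 4 below the whole flag blade array, so nothing is read from this count. These genes also varied among replicates of a flag blade part, by up to 4.18 for Cht5 and 4.97 for Cht2. With the hybridization controls set equal, Cht5 and Cht4 were still steady falls, while Cht1 and this Cht2 probe set were not.

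The direction was not shared by every chitinase. Cht6 had a trough at leaf 2, at 9.92, 8.30 and 11.24, and Cht10 was level at 8.59, 8.51 and 8.61. The defence list had a median difference of -0.59, against 0.02 for all probe sets read. These medians became 0.22 and 0.95 when the hybridization controls were made equal. PBZ1, a pathogenesis-related protein gene, was at 14.59, 14.26 and 13.55. The largest named fall was Pi21, a gene known for recessive resistance to rice blast, at 9.60, 8.17 and 2.31, with leaf 4 below the limit for reading. Its second probe set fell as well but stopped at 6.81, a fall of 2.78 where the first had one of 7.29, so the size is uncertain.

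Of 13 phytoalexin genes read, 12 lay lower in leaf 4 than in the flag blade, as did 48.7% of all probe sets read. There was 1 steady fall, and the median difference was -0.70. With the hybridization controls set equal it was 0.21, where the median of all probe sets read was 0.95. KSL5, a diterpene synthase gene, was at 9.39, 8.55 and 7.35, and CYP71Z6, a cytochrome P450 gene, at 11.70, 11.38 and 9.69. A leaf 4 value outside all 10 flag blade arrays was found for 2 of the 13, against 31.2% of all probe sets read, so this shift stayed mostly within the spread of the flag blade itself.

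The flowering-related MADS genes MADS14 and MADS15, relatives of the APETALA1 and FRUITFULL genes, fell with leaf position. MADS15 was at 11.32 in the flag blade, 9.51 in leaf 2 and 7.26 in leaf 4, below the 8.55 to 12.88 of the part arrays. MADS14 was at 13.46, 12.85 and 10.62, with part arrays from 12.38 to 13.81. All 4 MADS14 probe sets and all 3 MADS15 probe sets read fell steadily. MADS18 was at 13.19, 12.99 and 12.19, and MADS34, not read by its mean, at 8.55, 4.27 and 1.66.

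Other MADS genes went the opposite way. MADS47 rose, at 6.96, 8.81 and 9.33, and MADS50, an activator of flowering, was at 8.61, 9.84 and 9.99. The list of 14 MADS genes read thus had 1 rise and 2 falls and a median of -0.05. Hd1, the rice counterpart of CONSTANS, was the 1 steady gene of 14 clock and flowering genes read, at 6.41, 7.21 and 8.14, with part arrays from 6.41 to 7.32. The florigen gene Hd3a was at 12.13, 11.01 and 10.72, inside the 10.57 to 12.73 of the parts. The clock genes LHY and GI were nearly level, at 14.25, 13.97 and 14.16 and at 13.30, 13.43 and 13.15.

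**Figure D3:**
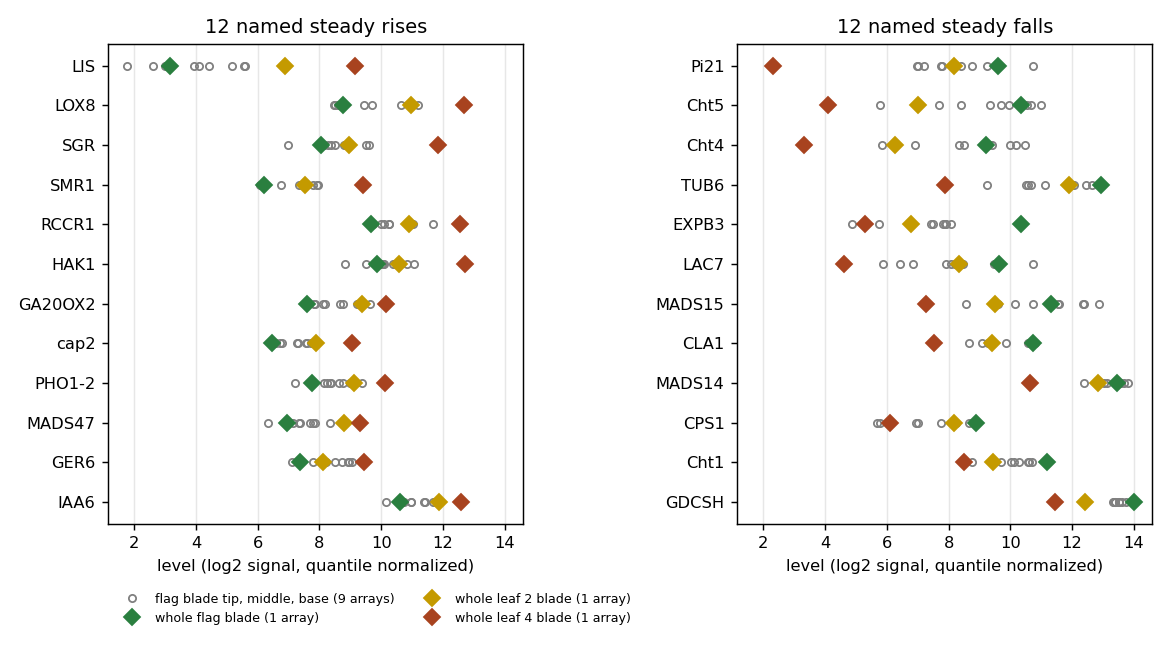
Levels (x axis, log2 signal after quantile normalization) of the 12 named steady rises and 12 named steady falls in the whole flag blade, leaf 2 and leaf 4 (diamonds, 1 array each) and in the 9 flag blade part arrays (open circles). The genes were chosen by their leaf 4 minus flag blade difference, so the distance of leaf 4 from the whole flag blade is given by that choice. In EXPB3 and CPS1 leaf 4 lies within the part arrays, and the GDCSH part arrays are the most tightly grouped of the falls.

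Of 35 growth-related genes read, 23 lay lower in leaf 4 than in the flag blade, against 48.7% of all probe sets read, and the median difference was -0.40. Steady changes were 4 falls and 2 rises. With the hybridization controls set equal the median was 0.54, against 0.95 for all. EXPB3, a beta-expansin gene of wall loosening, was at 10.34, 6.77 and 5.30, and EXPA2, an alpha-expansin gene, at 8.24, 5.89 and 5.31. Both were within the range of the flag blade parts in leaf 4, and EXPA2 was no steady fall on the deposited scale, with replicates within a flag blade part that differed by up to 4.45. CYCD4-2, a D-type cyclin gene, was at 7.35, 6.03 and 5.36, below the lowest part array of 6.51. The leaf 4 levels of EXPB3, EXPA2 and CYCD4-2 lay below the limit for reading. Neither EXPA2 nor CYCD4-2 was a steady fall with the hybridization controls set equal. EXPB9 rose from 6.81 to 9.57, but its replicates within a flag blade part differed by up to 9.88.

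TUB6, a beta-tubulin gene, was at 12.93, 11.89 and 7.87, below its lowest part array of 9.24 in leaf 4. LAC7, a laccase gene, was at 9.62, 8.33 and 4.60, with leaf 4 below the limit for reading. 4CL1, a 4-coumarate-CoA ligase gene of the phenylpropanoid pathway, was at 8.26, 7.63 and 6.02. These last 2 were the steady falls of 58 cell wall genes read, with CSLE1, a cellulose synthase-like gene, as the 1 rise at 10.87, 11.53 and 12.71. Of these 58, 35 lay lower and 23 higher in leaf 4, where 48.7% of all probe sets read lay lower. The median was -0.23, or 0.73 with the hybridization controls set equal, against 0.95 for all probe sets read. There were 5 peaks and 11 troughs at leaf 2. The 20 ribosomal protein genes read had no steady change and no turn, with a median of 0.11.

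Many jasmonate genes had their lowest value in leaf 2. Of 30 read 15 had a trough there, against 7.33% of all probe sets read. In leaf 4, 26 lay higher than in the flag blade, as did 14158 of the 27592 probe sets read. The median step was -0.55 down to leaf 2 and 0.88 up to leaf 4. The JAZ genes, which encode repressors of jasmonate responses and are themselves induced by jasmonate, made up 10 of these 15. JAZ10 was at 11.75 in the flag blade, 8.74 in leaf 2 and 11.97 in leaf 4, JAZ13 at 9.41, 6.85 and 9.76, and JAZ12 at 12.41, 9.94 and 13.31. The flag blade and leaf 4 were thus alike in JAZ10 and JAZ13, and leaf 2 was lower by over 2 on the log2 scale in all 3.

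Leaf 2 lay within the 9 part arrays for 8 of the 12 JAZ genes read, a share near the 69.7% of all probe sets read. The whole flag blade lay above all 9 for 6 of them and leaf 4 for 10. Of all probe sets read, 81.7% of whole flag blade values and 67.1% of leaf 4 values lay within the parts. With the mean of the parts in place of the whole flag blade, 4 rather than 10 JAZ genes had a trough. The drop to leaf 2 therefore depends on the single flag blade array, which the step from leaf 2 to leaf 4 does not use. Leaf handling, time of sampling and leaf age cannot be told apart here, as the labels give none of them per array.

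**Figure D4:**
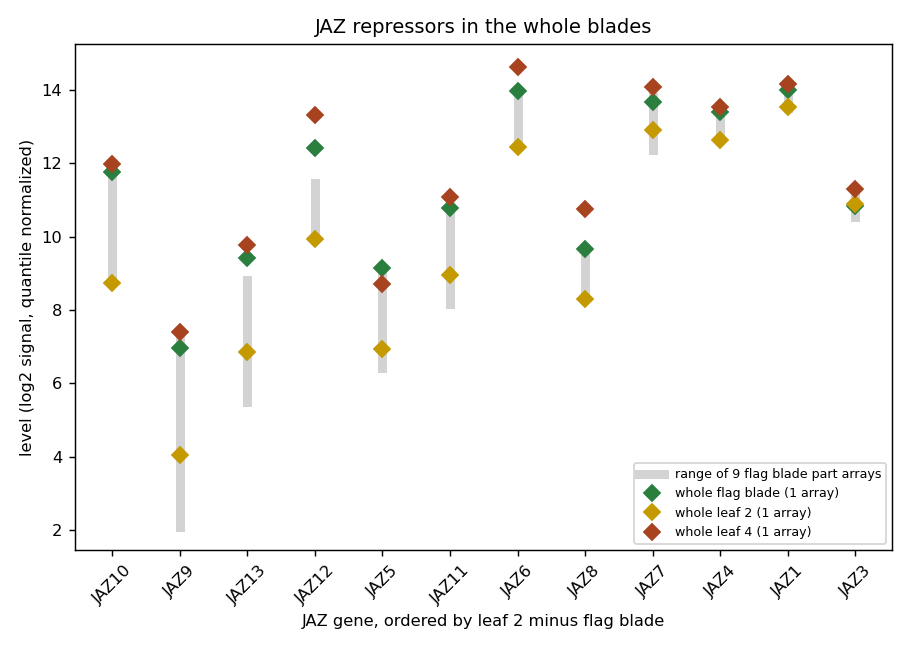
Levels (y axis, log2 signal after quantile normalization) of the 12 JAZ genes read in the whole flag blade, leaf 2 and leaf 4 (diamonds, 1 array each), with the range of the 9 flag blade part arrays as grey bars. Leaf 2 lies within the grey bar for 8 genes, and leaf 4 above it for 10. Of all probe sets read, 69.7% of leaf 2 values and 67.1% of leaf 4 values lie within the range of the parts.

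Some stress-related genes had a trough at leaf 2 as well. WRKY8 was at 10.07, 7.77 and 10.01, and 3 of 6 WRKY genes read had a trough, with a median step of -0.77 down to leaf 2 and 2.23 up to leaf 4. WRKY62, which was no trough, was at 9.19, 8.75 and 10.97, above the 9.79 of the highest part array in leaf 4. Troughs were also found in 2 of 7 NAC genes, 4 of 9 dehydration genes and 9 of 26 heat shock genes read. The heat shock protein gene HSP82 was at 12.75, 11.59 and 13.32. Most members of these last 3 lists did not turn, and troughs made up 7.33% of all probe sets read.

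The other named troughs were ROMT-17, an O-methyltransferase gene, at 12.68, 10.14 and 13.00, and JMJ706, a histone demethylase gene, at 10.26, 7.79 and 10.14. Among the named peaks, HXK6, a hexokinase gene, was at 9.22, 10.86 and 9.35, and CAX1b, a calcium/proton exchanger gene, at 7.08, 8.98 and 7.19. KIN14K, a kinesin gene, was at 8.85, 10.58 and 9.01, and the protein kinase gene CIPK10 at 8.85, 10.22 and 8.93. All 4 CIPK10 probe sets peaked. NIF4 and LOL4 completed the named peaks, the latter at 8.42, 9.55 and 7.23. Of 35 sugar and starch genes read, 3 peaked and 5 had a trough, none was steady, and the median was -0.20. The 10 SPL and ageing phase genes gave 2 peaks, and the 20 aquaporin genes 1 peak and 3 troughs, with no steady member in either list.

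The start of the series matters for which genes count as steady. With the mean of the 9 part arrays in place of the whole flag blade array, there were 372 rises and 271 falls, of which 193 rises and 199 falls were shared with the 358 and 481 above. Of the 12 named rises 8 kept the pattern: LIS, LOX8, RCCR1, GA20OX2, cap2, PHO1-2, MADS47 and IAA6. Of the 12 named falls 6 kept it: Cht5, Cht4, EXPB3, MADS15, Cht1 and GDCSH. TUB6 and CPS1 became peaks, and the other 8 met no pattern. All 24 kept their direction from flag blade to leaf 4 from this start, but for 6 of them the change was over 1.5 times smaller. It went from -5.04 to -2.21 for EXPB3, from -2.79 to -1.11 for CPS1 and from -5.07 to -3.38 for TUB6. For Cht1 it went from -2.67 to -1.52, for GA20OX2 from 2.57 to 1.54 and for GER6 from 2.08 to 1.08. SGR, for example, had little first step against the parts, while its leaf 4 level stayed 3.22 and 3.28 above their mean in its 2 probe sets.

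A rice blade matures from its tip downward, so the tip is older tissue than the base, and the part arrays give a readout that the steady rule did not use. Over the 38648 probe sets tested with limma, 122 were higher at the flag blade tip than at its base (0.316%) and 76 lower (0.197%), at an adjusted p under 0.05 with 3 replicates per part. Of the probe sets read on the blades, 0.563% of those tested were called in either direction. Among 354 steady rises tested 4 were higher and 4 lower at the tip (2.26%), and among 479 steady falls 4 were higher and 4 lower (1.67%). The steady probe sets called were thus split evenly between directions, though most of the falls lower at the tip were probe sets of a single gene, MADS15. Over all steady probe sets tested, called or not, the median tip to base difference was 0.05 for rises and -0.08 for falls. At an unadjusted p under 0.05, limma called 78 rises (22%) and 93 falls (19.4%) in either direction, against 9.67% of all probe sets read and tested.

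MADS15 was the named fall with a call: the tip was lower than the base by 2.56 ± 0.38 (SE, n = 3 per part, limma adjusted p = 0.00117), and 2 further MADS15 probe sets were called the same way. In a fit of the 9 part arrays alone its adjusted p was 0.259 and no steady fall was called, while over the other alternatives it ran from 0.000609 to 0.00914. Its levels at the tip were 8.55, 9.60 and 10.17, and at the base 11.57, 11.54 and 12.88, with no overlap. OAT, ornithine aminotransferase, was a steady rise at 8.08, 8.60 and 9.16, and was higher at the tip than at the base by 0.96 ± 0.18 (SE, n = 3 per part, limma adjusted p = 0.0103). It was chosen after its values were seen, and its adjusted p was 0.186 with the part arrays alone and 0.0668 without tip replicate 3, against 0.00461 to 0.047 over the other alternatives. For SGR the tip was higher by 1.17 ± 0.46 and for RCCR1 by 0.98 ± 0.27 (SE, n = 3 per part), with limma adjusted p-values of 0.368 and 0.115, so neither passed.

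Steady rises and falls also differed in where else in the plant they were highest. Of the 11 replicated groups, the upper flag sheath (flag sheath top) had the highest mean for 82 of 358 rises (22.9%), as for 6.86% of all probe sets read. The panicle branch had it for 104 of 481 falls (21.6%), against 7.31% of all, and the middle of the flag blade for 13.1% of falls, against 6.69%. The flag blade tip was near the background for both, at 14% and 14.3% against 13.7%. Flowers were highest for 13.7% of rises, against 9.31% of all, and the base of internode I for 14.8%, against 16.5%. For rises, falls and all probe sets read in turn, the top of internode I had 2.51%, 5.61% and 4.99%. Node I had 5.03%, 5.61% and 9.2%, and node II 7.54%, 5.61% and 8.71%. The flag blade base had 6.98%, 7.9% and 10.1%, and the flag sheath base 5.59%, 2.29% and 6.65%. Of the falls, 4.37% were highest in the sheath top, 6.44% in flowers and 13.1% in the base of internode I. Of the rises, 2.51% were highest in the panicle branch and 4.47% in the middle of the flag blade. SGR was highest in the sheath top, with a mean of 12.30, and Cht5, Cht4, GDCSH and APX8 in the panicle branch, at 13.30, 13.09, 14.14 and 14.01. These shares are descriptions with no test.

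**Figure D5:**
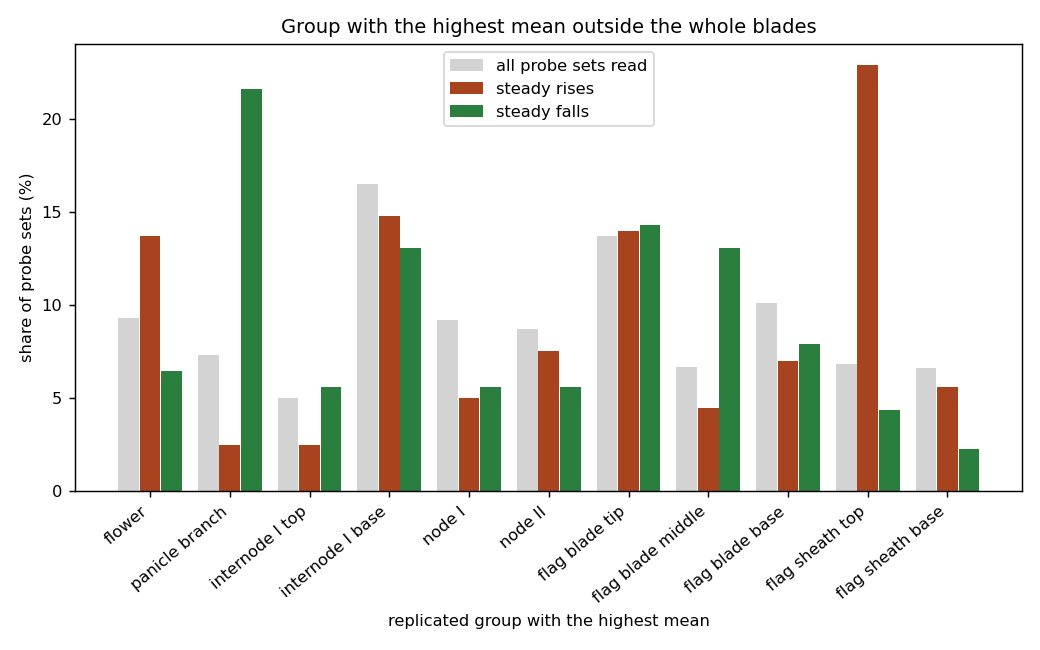
Share of probe sets (y axis, percent) by the replicated group with the highest mean (x axis), for all 27592 probe sets read, the 358 steady rises and the 481 steady falls. The tallest bar of the rises is the flag sheath top at 22.9% and that of the falls the panicle branch at 21.6%, where all probe sets read have 6.86% and 7.31%.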

How the data were processed

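Total RNA of 35 rice samples was hybridized singly to the Affymetrix Rice Genome Array, per the labels' protocols after RNeasy extraction and one-cycle biotin labelling. The authors deposited linear signal intensity for 57381 probe sets, from 0.0536 to 66643; the trimmed mean of every array lies near 500.0, as the values show, and no label, header or processing note used here names the software of that scaling. All columns were matched to samples by the labels (0 were left without one).

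Intensities, with the 123 control probe sets among them, were quantile normalized over the 35 arrays on the linear scale, floored at 1 and taken to log2. The control probe sets were then left out. Steady rises and falls were counted by size with no test. For tip against base of the flag blade, limma 3.58.1 (lmFit, then eBayes; R 4.3.3) was fitted to 11 replicated groups (32 arrays, 21 residual degrees of freedom) over the 38648 probe sets at or above the median on at least 3 arrays, with Benjamini-Hochberg adjustment, and both steps were tested on simulated data.

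Probe sets were named from the platform annotation, which lists 22531 of them, 95 with several genes and left unnamed, with symbols updated by gene number. The 30 gene lists are patterns of gene symbols, of which 629 of 831 genes were read, each at its brightest probe set. Named genes are the 12 rises and 12 falls of largest change whose highest value reached the 75th percentile, whose change exceeded the replicate range in the flag blade parts and whose call held on the deposited scale. To these were added the 6 peaks and 6 troughs of largest smaller step, up to 4 steady members per list, and members a sentence needed. The blades, lists and rules were chosen with earlier results of these data known, and some list patterns and names were edited after the files were in hand. No p-value was adjusted over a list. The labels call the replicates biological without naming plants, so p-values measure only the spread between these samples; array number limits the precision. Alternatives were other scalings, an added signal of 16, other filters and step sizes, another starting array, a replicate block and leaving out replicates.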

Additional observations from a re-analysis of the deposited data

How the results depend on the processing

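Steady rises numbered 314 to 386 and steady falls 431 to 488 with the deposited scale, equal array medians or an added signal of 16. With no filter they were 2233 and 2406, with a filter at the 75th percentile 130 and 182, with steps of 1 log2 64 and 90, and with steps of 0.25 log2 1206 and 1417. Only changes above the replicate range left 237 rises and 379 falls. The flag blade as the mean of its parts gave 372 and 271. Equal hybridization controls, chosen after seeing the data, gave 3825 and 112. The fewer or more probe sets under other filters and steps follow from those rules; for the start and the controls the cause was not tested. Of 41 named steady probe sets, the pattern remained in 40 on the deposited scale, 33 with equal medians, 39 with the added signal, 19 from the mean of the parts and 33 with equal controls, and none reversed.

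Between tip and base, the 9 part arrays alone, with fewer degrees of freedom, gave 21 probe sets higher and 3 lower, with 3065 at an unadjusted p under 0.05, and called 1 steady rise and 0 steady falls. Leaving out 1 replicate gave 77 to 132 higher and 26 to 120 lower; the lowest came without base replicate 2 for higher and without base replicate 3 for lower calls, and 120 lower without tip replicate 1. Of the steady rises 4 to 10 were called, 4 without tip replicate 3, and of the falls 5 to 12, with 5 without base replicate 3 and 12 without tip replicate 1 or 3. With the replicate number as a block, 132 were higher and 88 lower, with 9 rises and 10 falls called. Same-numbered tip and base arrays did not deviate together (r = -0.106, 0.028 and -0.043 over probe sets), so the numbers are not taken as pairs. One array per blade limits every blade value, and dim probe sets near the floor most.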
